A study of Rattus norvegicus with 24 samples.

Results

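Aminoacyl-tRNA synthetases join each amino acid to its own transfer RNA, the step that loads the building blocks of protein synthesis. The genes described here were chosen by symbol alone: 1 capital letter followed by "ars", ending there or in 1, 2, a or b, together with Eprs1, the fused enzyme for glutamate and proline. The rule found 32 genes among the 14217 that the array annotation names by 1 symbol, 19 for cytosolic and 13 for mitochondrial enzymes, and 50 of the 31099 probe sets carry their symbols. A gene was read by its probe set of highest mean intensity over all arrays. Lars2, Mars2 and Pars2 had no probe set with 1 symbol and were not analysed here.

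The samples were rat INS-1E cells, an insulin-secreting line derived from an insulinoma and used as a model of the pancreatic beta cell. The cells had no cytokines or a mixture of 3 cytokines, IL-1b at 10 ng/ml, IFN-g at 50 ng/ml and TNF-a at 25 ng/ml, in the presence of 10 uM BRD0476, a small molecule known for protecting these cells from cytokines, or of its solvent DMSO. RNA was taken at 6 h or 12 h, which gives 8 groups of 3 Affymetrix arrays, 24 in all. The labels do not say whether the 3 arrays of a group came from separate cultures, so the p-values below measure only the spread between these arrays, which may be technical. All results are from this 1 tumour-derived line, and in bulk RNA of this kind fewer cells making a transcript and less of it per cell cannot be told apart.

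Cytosolic enzymes serve the ribosomes of the cytosol, and another set, also encoded in the nucleus, is imported into mitochondria; Kars1 and Gars1 are known to supply both compartments from 1 gene. An uncharged tRNA is the signal read by the kinase GCN2, gene Eif2ak4, which phosphorylates eIF2 and raises translation of the transcription factor ATF4. Many cytosolic synthetase genes are described as ATF4 targets, and Wars1, the enzyme for tryptophan, is also known as a gene that interferon-gamma induces.

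Because ATF4 acts through C/EBP-ATF composite elements, the promoters were searched for the core TGATGNAA on both strands, in RefSeq windows of 250 bases before and 50 after each gene's start (build GRCr8), which were held for 30 of the 32 genes and not for Gars1 and Rars1. The core was in 7 of these 30 windows (23.3%) and in 1332 of all 33469 windows (3.98%). For each of the 7 genes 1 match is shown, because these genes return in several comparisons below. The matched 8 bases are in capitals, each window reads 5′ to 3′ on the strand given, and the last window is shorter because the RefSeq window ends there.
Aars1, chr19:55908480-55908509, minus strand: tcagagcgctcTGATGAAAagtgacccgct
Cars1, chr1:208225334-208225363, plus strand: tttccagaatcTGATGCAAccgcggcgccg
Iars1, chr17:15193658-15193687, plus strand: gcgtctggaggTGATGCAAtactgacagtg
Mars1, chr7:65023752-65023781, plus strand: ggagcccacgcTGATGCAAccggaacgggc
Nars1, chr18:60275778-60275807, minus strand: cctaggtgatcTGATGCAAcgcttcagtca
Tars1, chr2:62114811-62114840, plus strand: agctaaccagcTGATGCAAcgggacgccag
Yars1, chr5:146820190-146820212, plus strand: acgagctcagcTGATGCAAcctg

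Relative to the RefSeq start, the matches shown began between position -27 (Tars1) and position 39 (Yars1), and 4 of the 7 lay before the start. Aars1 also held a match that is not shown, before the start at positions -112 to -105. All 7 genes are among the 13 cytosolic synthetases of the ATF4 list, of which 12 had a window, and none of the 18 other genes with a window held the core. The gamma-activated site core TTCNNNGAA was in 5 of 30 windows (16.7%) against 8.87% of all windows, and CCAAT in 15 (50%) against 37.5%. The interferon-stimulated response element core GAAANNGAA was in 0 of 30 against 9.71%, which says only that these letters are not in these windows. None of the TGATGNAA matches shown overlapped a match of the other motifs, and a match is a description of letters, not a bound site.

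The arrays were alike in overall brightness, with array medians of 5.49 to 5.57 on the log2 scale, and arrays of a group correlated at 0.992 to 0.998. The 10 beta-cell markers were bright, with means over all arrays from 8.38 (Nkx6-1) to 14.54 (Ins1). Markers of leukocytes, fibroblasts, endothelium and exocrine cells had mean log2 values per array of 3.73 to 4.47, near the lower quartile of all probe sets at 3.85. These are means of lists. Pdgfra of the fibroblast list stood at 6.03 and Kdr of the endothelial list at 5.60, above the median of all probe sets at 5.55. Among other endocrine markers Gcg, encoding glucagon, stood at 10.14. The mean of the beta-cell markers was 11.96 to 12.05 in the cytokine arrays in DMSO at 6 h and 12.30 to 12.42 in those without cytokines. Of the 10 markers 7 fell, where 27.4% of all genes were called downward (limma, adjusted p under 0.05). At 12 h the mean was 12.09 to 12.12 against 12.39 to 12.42, and 4 of 10 fell, where 29.9% of all genes were called downward. With BRD0476 and cytokines the mean was 12.24 to 12.29 at 6 h and 12.46 to 12.47 at 12 h. The fibroblast list was at 3.74 to 3.96 with cytokines in DMSO at 6 h against 4.05 to 4.14 without, and the endothelial list at 3.82 to 3.96 against 4.17 to 4.20. The lists also differed with the compound: the endothelial one, with cytokines, was at 4.25 to 4.44 at 6 h and 4.41 to 4.47 at 12 h with BRD0476, the latter against 3.99 to 4.03 in DMSO. Without cytokines the beta-cell list was at 12.48 to 12.50 at 6 h and 12.52 to 12.57 at 12 h with BRD0476. These values move with the comparisons that follow, and their part in them was not tested.

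Cytokines in DMSO at 6 h raised most synthetase genes. Of the 32, 19 rose, 6 fell and 7 did not pass the threshold (limma over all genes, Benjamini-Hochberg adjusted p under 0.05), where 51.7% of all genes were called, 24.3% upward and 27.4% downward. The median log2 change was 0.64 over the synthetases and 0.00 over all genes. On 26 of the 32 probe sets the 3 cytokine arrays and the 3 control arrays did not overlap. The share of all genes without overlap is not given here, so this count has no background to be read against. Among the 19 cytosolic genes 14 rose and 2 fell (median 0.74), and among the 13 mitochondrial genes 5 rose and 4 fell (median 0.19). Values below are log2 intensities and log2 differences with their standard errors, 3 arrays a group, and levels are not compared between genes because each probe set has its own brightness.

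Kars1, the lysine enzyme, had the largest cytokine change of the 32 genes at 6 h. Its arrays read 9.66, 9.44 and 9.65 without cytokines and 11.65, 11.58 and 11.62 with them, a rise of 2.03 ± 0.07 (adjusted p = 3.4e-16). Wars1 read 10.93, 10.72 and 10.89 without and 12.47, 12.27 and 12.38 with cytokines, a rise of 1.52 ± 0.08 (adjusted p = 4.4e-13). In both genes every cytokine array lay more than 1 log2 unit above every control array. Sars1, the serine enzyme, read 10.61, 10.47 and 10.60 against 11.68, 11.66 and 11.68, a rise of 1.11 ± 0.07. Vars1, the valine enzyme, rose by 1.22 ± 0.12 from 9.16, 9.08 and 9.20 to 10.55, 10.52 and 10.02. The groups are apart in both, and the cytokine array of Vars1 at 10.02 is well under the other 2.

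The 13 cytosolic genes of the ATF4 list moved mostly upward: 12 rose and 1 fell, with a median of 0.75. The list was drawn up with earlier results of these data known, so its count is no independent evidence of direction. Besides Wars1, Vars1 and Sars1, its rises were Yars1, the tyrosine enzyme, by 0.86 ± 0.07, Nars1 for asparagine by 0.84 ± 0.07, Mars1 for methionine by 0.78 ± 0.10 and Tars1 for threonine by 0.75 ± 0.07. Eprs1 rose by 0.74 ± 0.17, Cars1 for cysteine by 0.73 ± 0.08, Aars1 for alanine by 0.72 ± 0.08, Iars1 for isoleucine by 0.65 ± 0.10 and Lars1 for leucine by 0.63 ± 0.07. These 9 changes lie between 0.63 and 0.86, and in each the cytokine arrays lay above the control arrays.

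Gars1, the glycine enzyme, was the gene of the ATF4 list that fell. Its arrays read 12.40, 12.42 and 12.38 without and 12.01, 11.95 and 12.05 with cytokines, a change of -0.39 ± 0.06 (adjusted p = 3.1e-06). Its other probe set, which is dimmer, also fell (-0.56 ± 0.14). Of the 6 measured cytosolic genes outside that list, Kars1 and Rars1 rose and Farsa fell. Rars1, the arginine enzyme, went from 10.48, 10.41 and 10.55 to 11.39, 11.32 and 11.58, a rise of 0.95 ± 0.07. Farsa and Farsb encode the alpha and beta subunits of the phenylalanine enzyme, and only the first passed the test, at -0.31 ± 0.08. Farsb was at 0.16 ± 0.07 (adjusted p = 0.0576), but its dimmer probe set fell by 0.75 ± 0.09 on the log2 scale, so its direction depends on the probe set. Hars1 for histidine (0.10 ± 0.08) and Qars1 for glutamine (0.07 ± 0.08) did not pass.

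**Figure D1:**
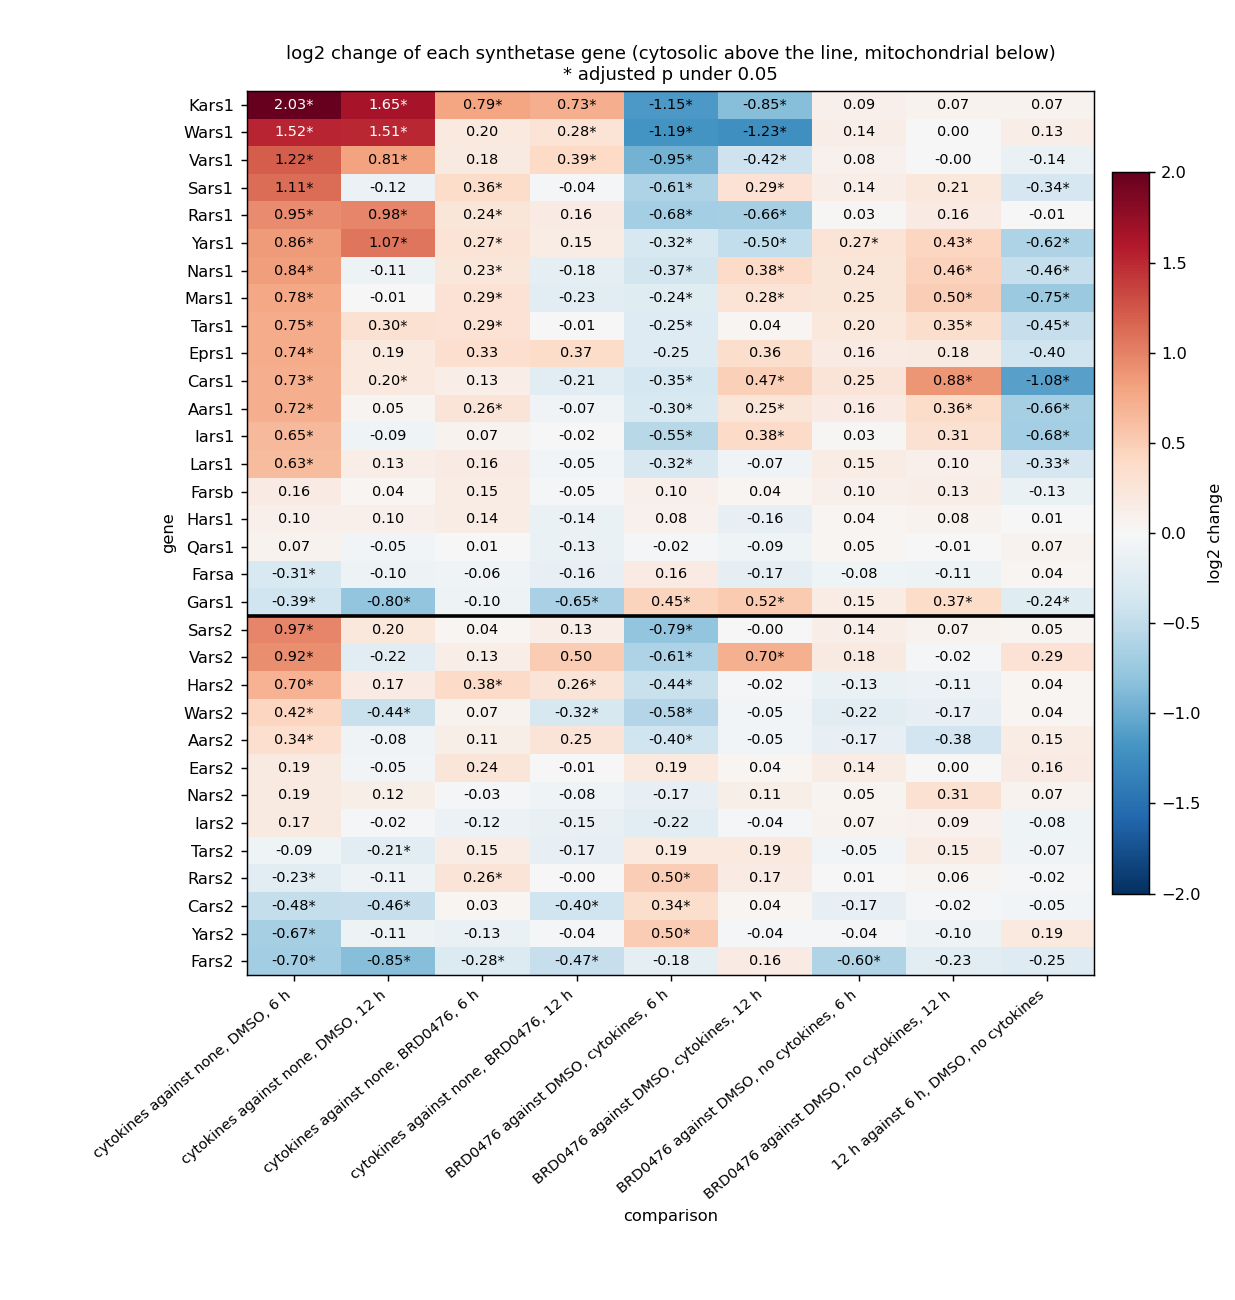
Log2 change of each of the 32 synthetase genes (rows, cytosolic above the line and mitochondrial below) in 9 comparisons (columns), with a star at adjusted p under 0.05. The first column is mostly red, from 2.03 for Kars1 down to -0.70 for Fars2, and the column for BRD0476 with cytokines at 6 h is mostly blue.

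Several cytosolic synthetases are held in a multisynthetase complex on the scaffold proteins that Aimp1, Aimp2 and Eef1e1 encode. Of its 7 measured enzymes 6 rose at 6 h (Kars1, Rars1, Mars1, Eprs1, Iars1 and Lars1) and Qars1 did not pass. Over all genes 24.3% rose at 6 h. At 12 h 2 of the 7 rose, beside 16% of all genes. Of the scaffolds at 6 h Aimp1 rose by 0.38 ± 0.10, Eef1e1 rose by 0.16 ± 0.05 and Aimp2 was at -0.16 ± 0.07, which did not pass. The enzymes belong to different structural classes with unrelated catalytic folds. At 6 h 10 of the 16 class I genes rose and 3 fell, and 8 of the 15 class II genes rose and 3 fell. Over all genes 24.3% rose and 27.4% fell.

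The mitochondrial genes went both ways. Sars2 for serine read 6.30, 6.06 and 6.34 without and 7.50, 7.36 and 6.74 with cytokines, a rise of 0.97 ± 0.17. Vars2 for valine read 4.75, 4.88 and 4.87 against 6.00, 6.02 and 5.25, a rise of 0.92 ± 0.22. In Sars2, Vars2 and the cytosolic Vars1 the lowest cytokine array was the same library, replicate 3, and replicate 3 was also the lowest of the 3 at 12 h. Hars2 for histidine rose by 0.70 ± 0.09, Wars2 for tryptophan by 0.42 ± 0.06 and Aars2 for alanine by 0.34 ± 0.12. Fars2, the phenylalanine enzyme of mitochondria, read 9.27, 8.98 and 9.31 against 8.51, 8.47 and 8.49, a change of -0.70 ± 0.07. Yars2 for tyrosine fell from 7.52, 7.92 and 7.49 to between 6.88 and 7.05, a change of -0.67 ± 0.10. The arrays of the 2 conditions are apart in both genes, and the controls of Yars2 are the more spread. Cars2 for cysteine (-0.48 ± 0.08) and Rars2 for arginine (-0.23 ± 0.07) fell. The remaining changes did not pass: Ears2 for glutamate and Nars2 for asparagine were both at 0.19, Iars2 for isoleucine at 0.17 and Tars2 for threonine at -0.09. Without control replicate 1 or 3, or cytokine replicate 2, the call of Aars2 was lost (adjusted p = 0.102, 0.0507 and 0.0823), and it was the only called gene of the 25 that lost its call when any 1 array was left out.

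At 12 h cytokines in DMSO called fewer synthetases: 7 rose and 5 fell, where 45.9% of all genes were called, 16% upward and 29.9% downward. The median change was -0.01 over the 32 genes and -0.04 over all genes. All 7 rises were cytosolic, and the 7 genes had also risen at 6 h. Of the other 12 that rose at 6 h, 11 did not pass at 12 h and Wars2 fell. Of the 6 that fell at 6 h, Gars1, Fars2 and Cars2 fell at both times.

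Kars1 read 9.65, 9.66 and 9.65 without and 11.34, 11.38 and 11.20 with cytokines at 12 h, a rise of 1.65 ± 0.07. Wars1 read 10.98, 11.02 and 10.93 against 12.62, 12.45 and 12.42, a rise of 1.51 ± 0.08. Yars1 rose by 1.07 ± 0.07, from 10.11, 10.18 and 10.26 to 11.28, 11.30 and 11.18. The 2 conditions are far apart in these 3 genes. Rars1 read 10.43, 10.50 and 10.50 against 11.46, 11.43 and 11.49, a rise of 0.98 ± 0.07, and Vars1 rose by 0.81 ± 0.12. Tars1 rose by 0.30 ± 0.07. Cars1 was called at 0.20 ± 0.08 although its arrays overlap (7.58, 7.72 and 7.56 against 8.03, 7.75 and 7.68). Without cytokine replicate 1, or control replicate 1 or 3, its call was lost (adjusted p = 0.314, 0.119 and 0.148).

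Gars1 fell further at 12 h, from 12.12, 12.17 and 12.18 to 11.37, 11.36 and 11.35, a change of -0.80 ± 0.06. Fars2 fell by 0.85 ± 0.07 from 8.95, 8.89 and 8.98 to 8.11, 8.07 and 8.08. The cytokine arrays of both genes differ among themselves by less than 0.1. Cars2 (-0.46 ± 0.08), Wars2 (-0.44 ± 0.06) and Tars2 (-0.21 ± 0.08) fell, but Tars2 was at 0.0098 on its probe set of largest variance. The call of Tars2 was lost without control replicate 1 or 3 or cytokine replicate 2 or 3 (adjusted p from 0.0535 to 0.128).

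**Figure D2:**
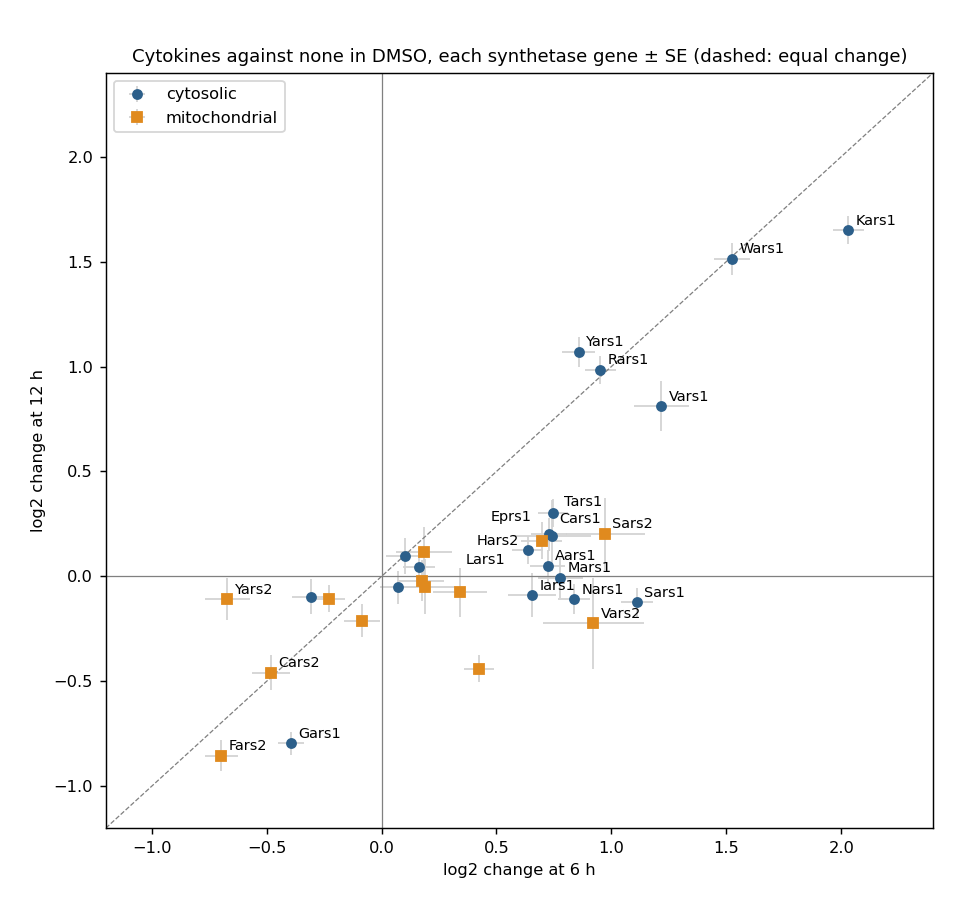
Log2 change with cytokines in DMSO at 6 h (horizontal) and 12 h (vertical) for each synthetase gene with standard errors, circles cytosolic and squares mitochondrial, with a dashed line of equal change. Kars1, Wars1, Rars1, Yars1 and Vars1 are high on both axes, and a group around 0.6 to 1.1 at 6 h, Sars1 among them, lies near 0 at 12 h.

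The difference between the 2 times was tested directly. The cytokine change was lower at 12 h than at 6 h for 14 synthetases and higher for 1, Yars2 (0.56 ± 0.14), where 28.8% of all genes were called; the median difference was -0.39 over the 32 genes. The largest drops were Sars1 (-1.24 ± 0.10), Vars2 (-1.15 ± 0.31), Nars1 (-0.95 ± 0.10), Wars2 (-0.87 ± 0.09) and Mars1 (-0.78 ± 0.14). For Sars1 the cytokine arrays went from 11.68, 11.66 and 11.68 at 6 h to 10.15, 10.06 and 10.07 at 12 h, next to the 12 h controls at 10.13, 10.25 and 10.27. Sars2 (-0.77 ± 0.24) lost this call without control replicate 2 at 6 h, cytokine replicate 1 or 2 at 6 h, or cytokine replicate 3 at 12 h (adjusted p from 0.0544 to 0.0684). No drop passed for Wars1, whose difference was -0.01 with a 95% interval from -0.24 to 0.21, nor for Rars1 (0.03 ± 0.09) or Yars1 (0.21 ± 0.10).

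The untreated cells also changed with time. Between 6 h and 12 h without cytokines or compound, 10 synthetases fell and 0 rose (0 higher and 12 lower at an unadjusted p under 0.05 in limma), where 1.67% of all genes were called. All 10 belong to the ATF4 list of 13, whose median was -0.45. That list was drawn up with earlier results of these data known, so this count is no independent evidence. Cars1, which had the largest fall, read 8.74, 8.63 and 8.75 at 6 h and 7.58, 7.72 and 7.56 at 12 h, a change of -1.08 ± 0.08 (adjusted p = 3.9e-08). Mars1 read 10.59, 10.30 and 10.59 against 9.75, 9.75 and 9.74, a change of -0.75 ± 0.10, and Iars1 (-0.68 ± 0.10) and Aars1 (-0.66 ± 0.08) fell as well. In these genes the 6 h and the 12 h arrays do not overlap. Yars1 (-0.62 ± 0.07), Nars1 (-0.46 ± 0.07), Tars1 (-0.45 ± 0.07), Sars1 (-0.34 ± 0.07), Lars1 (-0.33 ± 0.07) and Gars1 (-0.24 ± 0.06) fell. The calls of the last 3 were lost in some fits that left out 1 array: Gars1 without any of the 6 arrays (adjusted p from 0.057 to 0.125), Lars1 without 6 h replicate 1 or 3 or 12 h replicate 1 (0.0513 to 0.0642) and Sars1 without replicate 1 of either time (0.057 and 0.0725). Kars1 (0.07), Wars1 (0.13) and Rars1 (-0.01) did not pass. Of the 13 mitochondrial genes 0 were called in limma and 1 was lower at an unadjusted p under 0.05. All 7 genes whose windows hold TGATGNAA fell here, as did 2 of the 23 whose windows do not. This comparison uses the control arrays of both cytokine comparisons, so it is not independent of them. With cytokines in DMSO at 12 h Cars1 was at 7.68 to 8.03, Mars1 at 9.63 to 9.92 and Nars1 at 10.40, close to the untreated arrays of that time.

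**Figure D3:**
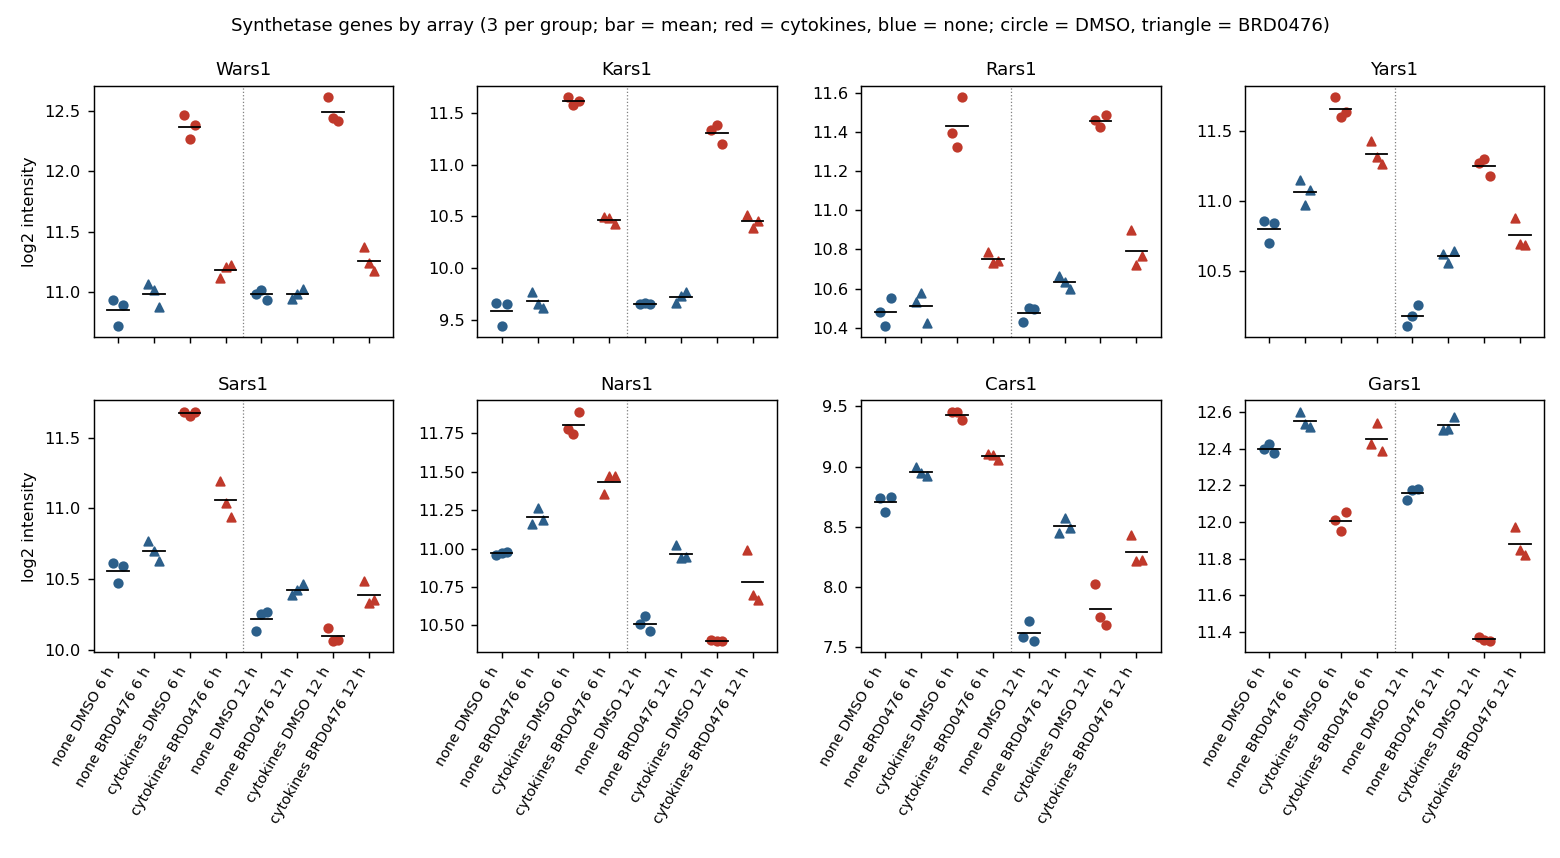
Log2 intensity of 8 synthetase genes on every array, 3 points a group, over the 8 groups of cytokines, compound and time. Wars1 and Kars1 are highest in the 2 cytokine groups in DMSO, Kars1 is intermediate with cytokines and BRD0476, and Cars1 is lowest in the controls in DMSO at 12 h.

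BRD0476 given with cytokines was compared with DMSO and cytokines, the question being how far the compound alters the response. At 6 h it lowered 18 synthetases and raised 4, where 44% of all genes were called, 24.7% upward and 19.4% downward; the median change was -0.28 over the 32 genes and 0.00 over all genes. This comparison shares its DMSO arrays with the cytokine comparison above, so the values are set side by side and no overlap between the 2 is given as a result. Among the cytosolic genes 1 rose and 13 fell, and among the mitochondrial genes 3 rose and 5 fell.

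Wars1 read 12.47, 12.27 and 12.38 with cytokines in DMSO and 11.12, 11.20 and 11.22 with cytokines and BRD0476, a change of -1.19 ± 0.08 (adjusted p = 6.9e-11). Its other probe set changed by -1.63 ± 0.16. Kars1 read 11.65, 11.58 and 11.62 against 10.49, 10.48 and 10.42, a change of -1.15 ± 0.07. With the compound Wars1 came close to its controls in DMSO (10.72 to 10.93), and Kars1 stayed well above its own (9.44 to 9.66). Vars1 fell by 0.95 ± 0.12, to 9.45, 9.41 and 9.37. Rars1 (-0.68 ± 0.07), Sars1 (-0.61 ± 0.07), Iars1 (-0.55 ± 0.10), Nars1 (-0.37 ± 0.07) and Cars1 (-0.35 ± 0.08) fell. Lars1 and Yars1 (-0.32 ± 0.07 each), Aars1 (-0.30 ± 0.08) and Tars1 (-0.25 ± 0.07) fell. Mars1 was at -0.24 ± 0.10, just inside the threshold (adjusted p = 0.04999), and lost its call without any 1 array other than cytokine and DMSO replicate 1 (adjusted p from 0.078 to 0.144). Eprs1, at -0.25 ± 0.17, did not pass.

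Gars1 moved the other way. Its arrays read 12.01, 11.95 and 12.05 with cytokines in DMSO and 12.43, 12.54 and 12.39 with the compound added, a rise of 0.45 ± 0.06. Among the mitochondrial genes Rars2 rose by 0.50 ± 0.07, Yars2 by 0.50 ± 0.10 and Cars2 by 0.34 ± 0.08. In the cytokine comparison, which shares the DMSO arrays, the 4 genes were at -0.39 (Gars1), -0.23 (Rars2), -0.67 (Yars2) and -0.48 (Cars2). Sars2 (-0.79 ± 0.17), Wars2 (-0.58 ± 0.06), Hars2 (-0.44 ± 0.09) and Aars2 (-0.40 ± 0.12) fell. Vars2 was called at -0.61 ± 0.22 with overlapping arrays (6.00, 6.02 and 5.25 against 5.51, 4.91 and 5.01), and its call was lost without DMSO replicate 1 or 2 or BRD0476 replicate 2 or 3 (adjusted p from 0.0892 to 0.128).

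The interaction asks whether the cytokine change differs between BRD0476 and DMSO. At 6 h it was negative for 15 synthetases and positive for 5, where 33.2% of all genes were called, and the 20 calls held in each fit that left out 1 array. The median was -0.38 over the 32 genes. The most negative called values were Wars1 (-1.33 ± 0.11), Kars1 (-1.24 ± 0.09), Vars1 (-1.04 ± 0.17), Sars2 (-0.93 ± 0.24) and Sars1 (-0.75 ± 0.10), and the positive ones were Yars2 (0.54 ± 0.14), Cars2 (0.51 ± 0.12), Rars2 (0.49 ± 0.09), Fars2 (0.42 ± 0.10) and Gars1 (0.29 ± 0.08). All 13 genes of the ATF4 list but Eprs1 were called, 11 negative and 1 positive, and that list was drawn up with earlier results known.

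Within BRD0476 the cytokine response at 6 h was smaller. There 10 synthetases rose and 1 fell, where 20.9% of all genes were called, with a median of 0.15. Kars1 rose by 0.79 ± 0.07, Hars2 by 0.38 ± 0.09, Sars1 by 0.36 ± 0.07, Tars1 by 0.29 ± 0.07 and Rars2 by 0.26 ± 0.07, and Fars2 fell by 0.28 ± 0.07. Wars1 was at 0.20 ± 0.08 (adjusted p = 0.0786). Mars1 (0.29), Yars1 (0.27), Aars1 (0.26), Rars1 (0.24) and Nars1 (0.23) were called but each lost its call without 1 or more single arrays (adjusted p from 0.0517 to 0.179), and Mars1 was at -0.0915 on its probe set of largest variance. Without BRD0476 replicate 3 of the cells that had no cytokines, 7 synthetases were called in place of 11.

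At 12 h the compound lowered 5 synthetases and raised 8 in cells with cytokines, where 26.9% of all genes were called, 16.3% upward and 10.6% downward. The 5 that fell had also fallen at 6 h. Wars1 read 12.62, 12.45 and 12.42 in DMSO and 11.37, 11.24 and 11.17 with BRD0476, a change of -1.23 ± 0.08. Kars1 read 11.34, 11.38 and 11.20 against 10.51, 10.39 and 10.45, a change of -0.85 ± 0.07. Both are lower in every array with the compound, as at 6 h. Rars1 (-0.66 ± 0.07), Yars1 (-0.50 ± 0.07) and Vars1 (-0.42 ± 0.12) fell. The call of Vars1 was lost without DMSO replicate 2 or BRD0476 replicate 1 (adjusted p = 0.0935 and 0.0564).

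Of the 8 rises at 12 h, 7 were in genes that had fallen at 6 h. Cars1 read 8.03, 7.75 and 7.68 in DMSO and 8.44, 8.22 and 8.23 with the compound, a rise of 0.47 ± 0.08. Nars1 read 10.40 on all 3 DMSO arrays and 10.99, 10.70 and 10.66 with BRD0476, a rise of 0.38 ± 0.07. Gars1 rose by 0.52 ± 0.06, to 11.97, 11.85 and 11.82. Of these only Gars1 had risen at 6 h. Sars1 rose by 0.29 ± 0.07 and Iars1 by 0.38 ± 0.10, whose call was lost without BRD0476 replicate 1 (adjusted p = 0.0575). Mars1 (0.28 ± 0.10) and Aars1 (0.25 ± 0.08) lost theirs without DMSO replicate 2 or BRD0476 replicate 1, and Mars1 also without DMSO replicate 1 (adjusted p from 0.0727 to 0.235). Vars2, the only mitochondrial gene called, was at 0.70 ± 0.22. Without DMSO replicate 3, which read 4.30 beside 5.10 and 5.28, it was at 0.41 (adjusted p = 0.152). Vars2 also lost its call without BRD0476 replicate 2 or 3 (0.0814 and 0.0568). No positive interaction with cytokines was called at 12 h for any of the 8 genes, and that of Cars1 was negative. BRD0476 alone at 12 h, described below, also raised Cars1, Nars1, Gars1, Mars1 and Aars1. Iars1, Sars1 and Vars2 were not called there.

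**Figure D4:**
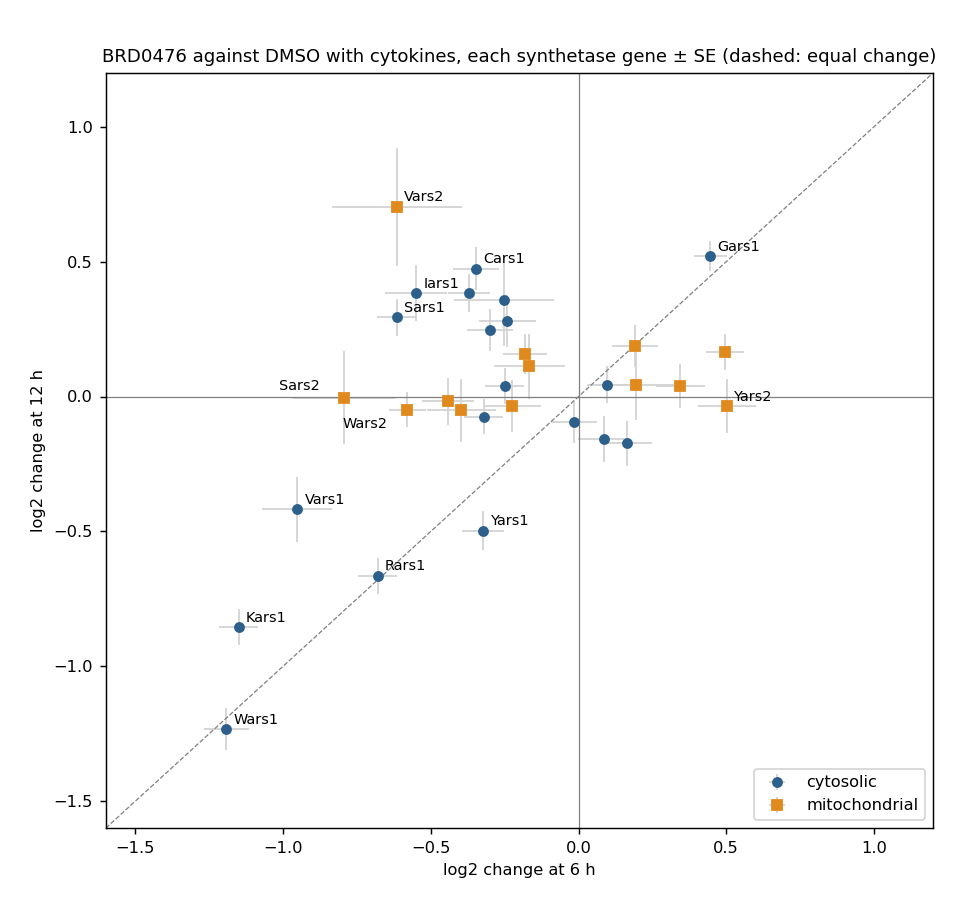
Log2 change with BRD0476 against DMSO in cells with cytokines at 6 h (horizontal) and 12 h (vertical), each synthetase gene with standard errors, circles cytosolic and squares mitochondrial, with a dashed line of equal change. Wars1, Kars1, Rars1, Yars1 and Vars1 are below 0 on both axes, Gars1 is above 0 on both, and Cars1, Iars1, Sars1 and Vars2 are below 0 at 6 h and above it at 12 h.

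Tested directly, the change with BRD0476 was higher at 12 h than at 6 h for 14 synthetases and lower for 3, where 25% of all genes were called. The differences were largest for Vars2 (1.32 ± 0.31), Iars1 (0.93 ± 0.15), Sars1 (0.91 ± 0.10), Cars1 (0.82 ± 0.11) and Sars2 (0.79 ± 0.24). Lower at 12 h were Yars2 (-0.54 ± 0.14), Rars2 (-0.33 ± 0.09) and Farsa (-0.34 ± 0.12). The calls of Farsa, Fars2, Kars1, Sars2, Tars1 and Vars1 were lost in some fits that left out 1 array, and 11 of the 17 were kept in all of them. At 12 h the interaction with cytokines was negative for 6 synthetases and positive for 1, Fars2 (0.39 ± 0.10), where 15.3% of all genes were called. The negative ones were Wars1 (-1.24 ± 0.11), Kars1 (-0.92 ± 0.09), Yars1 (-0.92 ± 0.10), Rars1 (-0.82 ± 0.09), Cars1 (-0.41 ± 0.11) and Tars1 (-0.31 ± 0.09, adjusted p from 0.0521 to 0.076 in the 6 fits where leaving out 1 array ended its call). Within BRD0476 at 12 h cytokines raised Kars1 by 0.73 ± 0.07, Vars1 by 0.39 ± 0.12, Wars1 by 0.28 ± 0.08 and Hars2 by 0.26 ± 0.09 and lowered Gars1 by 0.65, Fars2 by 0.47, Cars2 by 0.40 and Wars2 by 0.32, which makes 8 calls where 27.7% of all genes were called. The calls of Hars2 and Vars1 were each lost without BRD0476 replicate 1 or 2 of the cells with no cytokines or replicate 2 or 3 of those with cytokines (adjusted p from 0.0518 to 0.104).

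BRD0476 without cytokines left most synthetases uncalled at 6 h. Yars1 rose by 0.27 ± 0.07 and Fars2 fell by 0.60 ± 0.07, where 3.53% of all genes were called. Fars2 read 9.27, 8.98 and 9.31 in DMSO and 8.67, 8.50 and 8.60 with the compound, so the groups do not overlap. Yars1 lost its call without any 1 of the 6 arrays except BRD0476 replicate 2 (adjusted p from 0.0578 to 0.18), which leaves 1 gene called in those fits.

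At 12 h the compound alone raised 7 synthetases and lowered 0 (11 higher and 3 lower at an unadjusted p under 0.05 in limma), where 4.66% of all genes were called. All 7 belong to the ATF4 list, which was drawn up with earlier results of these data known. Each of the 7 kept its call whichever array was left out. Cars1 read 7.58, 7.72 and 7.56 in DMSO and 8.45, 8.57 and 8.49 with BRD0476, a rise of 0.88 ± 0.08 (adjusted p = 4.8e-07). Mars1 read 9.75, 9.75 and 9.74 against 10.25, 10.25 and 10.23, a rise of 0.50 ± 0.10. In both genes the arrays with the compound lie above the DMSO arrays of 12 h and below those of 6 h. Nars1 rose by 0.46 ± 0.07, Yars1 by 0.43 ± 0.07, Gars1 by 0.37 ± 0.06, Aars1 by 0.36 ± 0.08 and Tars1 by 0.35 ± 0.07. Of the 7 genes with TGATGNAA in their windows 6 rose, and of the 23 without it 0 rose; Gars1 had no window. Between 6 h and 12 h in the untreated cells, which share the DMSO arrays of 12 h, 7 of 7 with the core and 2 of 23 without it fell (1.21% of all genes). In the comparisons with cytokines the split was less sharp. With cytokines in DMSO 7 of 7 with the core and 11 of 23 without it rose at 6 h (24.3% of all genes). At 12 h 3 of 7 and 3 of 23 rose (16% of all genes). With BRD0476 and cytokines 7 of 7 and 10 of 23 fell at 6 h (19.4% of all genes), and 5 of 7 and 2 of 23 rose at 12 h (16.3%). The interaction was negative for 7 of 7 and 7 of 23 at 6 h (14.4% of all genes). At 12 h it was negative for 3 of 7 and 2 of 23 (6.89%). With BRD0476 alone at 12 h Wars1 (0.00 ± 0.08) and Kars1 (0.07 ± 0.07) did not pass. The DMSO arrays at 12 h without cytokines serve this comparison, the one between times and the cytokine comparison at 12 h, so the 3 are not independent.

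The ATF4 pathway genes other than synthetases, a list of 30 with 29 measured, were read beside these results. With cytokines in DMSO at 6 h 20 rose and 3 fell (median 0.94; 51.7% of all genes called). Atf4 itself rose by 1.0 ± 0.07, Ddit3, the stress factor CHOP, by 4.24 ± 0.10, Trib3, a pseudokinase that ATF4 and CHOP induce, by 3.36 ± 0.12 and Chac1, which degrades glutathione, by 2.19 ± 0.10. Asns, asparagine synthetase, was at -0.06 ± 0.07 and did not pass. At 12 h 10 rose and 9 fell (median 0.08; 45.9% of all genes called): Atf4 by 0.79 ± 0.07, Ddit3 by 1.53 ± 0.10, Trib3 by 1.49 ± 0.12 and Chac1 by 2.61 ± 0.10 upward, while Asns fell by 0.59 ± 0.07. BRD0476 with cytokines raised 3 and lowered 18 of the 29 at 6 h (median -0.48; 44% of all genes called) and raised 14 and lowered 4 at 12 h (median 0.23; 26.9%). Atf4 was at -0.57 ± 0.07 and 0.09 ± 0.07 at these times, the first called, and Asns at 0.03 ± 0.07 and 0.36 ± 0.07, the second called. Between 6 h and 12 h in the untreated cells 14 fell and 0 rose (18 lower and 0 higher at an unadjusted p under 0.05 in limma), beside 1.67% of all genes called, among them Chac1 (-1.99 ± 0.10), Trib3 (-1.23 ± 0.12), Atf4 (-0.86 ± 0.07) and Asns (-0.44 ± 0.07). With BRD0476 alone at 12 h 9 rose and 1 fell, beside 4.66% of all genes called, Chac1 by 1.66 ± 0.10 and Atf4 by 0.83 ± 0.07 among the rises.

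In the list of eIF2 kinases, eIF2 and its exchange factor (14 genes) 6 rose and 2 fell with cytokines in DMSO at 6 h and 3 rose and 5 fell at 12 h, beside 51.7% and 45.9% of all genes called. Eif2ak2, the kinase PKR that double-stranded RNA activates, rose by 1.80 ± 0.11 at 6 h and 3.0 ± 0.11 at 12 h. Eif2ak4, the sensor of uncharged tRNA, fell by 0.53 ± 0.08 at 6 h and fell by 0.61 ± 0.08 at 12 h, and with BRD0476 and cytokines it rose by 0.63 ± 0.08 and 0.50 ± 0.08. Impact, an inhibitor of GCN2 activation, rose by 1.10 ± 0.11 at 6 h and fell by 0.40 ± 0.11 at 12 h. The sensor and its inhibitor thus had opposite signs at 6 h.

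Of the 11 synthetase-like and tRNA-charging accessory genes 4 rose and 4 fell with cytokines at 6 h, and 0 rose and 6 fell at 12 h (in limma, also 0 upward at an unadjusted p under 0.05). Over all genes 24.3% rose and 27.4% fell at 6 h, and 16% rose and 29.9% fell at 12 h. Tars3, a threonine enzyme outside the naming rule, fell by 0.58 ± 0.10 at 6 h and fell by 0.72 ± 0.10 at 12 h, where Tars1 rose. Sepsecs, which completes selenocysteine on its tRNA, fell by 0.63 ± 0.06 at 6 h and fell by 0.49 ± 0.06 at 12 h. Xpot, the exporter of tRNA from the nucleus, rose by 0.52 ± 0.10 at 6 h and fell by 0.62 ± 0.10 at 12 h. BRD0476 with cytokines raised 5 and lowered 1 at 6 h and raised 5 at 12 h, where 44% and 26.9% of all genes were called, Xpot by 0.60 ± 0.10 at the later time. The 11 translation elongation factors gave 3 rises and 4 falls at 6 h and 1 rise and 3 falls at 12 h, beside the same 51.7% and 45.9% of all genes, with changes as large as 0.44 ± 0.10 for Eef2 at 6 h among those called.

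Wars1 is known as an interferon-gamma-induced gene, so a list of 16 such genes was read too. All 15 measured genes rose with cytokines in DMSO at 6 h and 12 h (medians 4.72 and 5.08), where 24.3% and 16% of all genes rose. All 15 fell with BRD0476 and cytokines (medians -2.68 and -2.50), where 19.4% and 10.6% of all genes fell. Irf1, a transcription factor that interferon-gamma induces, rose by 4.74 ± 0.11 and 5.08 ± 0.11 with cytokines and fell by 2.68 ± 0.11 at 6 h and fell by 2.50 ± 0.11 at 12 h with the compound. The cytokine change at 12 h minus that at 6 h was 0.34 ± 0.16 for Irf1 (adjusted p = 0.1191) and -0.01 ± 0.11 for Wars1, and neither passed. Between 6 h and 12 h without treatment 0 of the 15 genes were called in limma, where 1.67% of all genes were called. At an unadjusted p under 0.05 in limma 1 of the 15 was higher.

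The probe sets left aside give a check of the choice of 1 probe set a gene. The 14 genes with several had 18 others, and in none of the 13 comparisons was another probe set called opposite to a called main one. With cytokines in DMSO at 6 h 12 of the 18 were called the same way, 3 were not called where the main one was, and 1, of Farsb, was called where the main one was not. Size differed more than direction: Cars1 was at 0.73 on its brightest probe set at 6 h and at 1.57 and 1.53 on 2 others, and Wars1 at 1.52 and 1.84. At 12 h the same probe sets of Cars1 were at 0.20, 0.39 and 0.40.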

How the data were processed

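RNA of 24 INS-1E samples (8 groups of 3) was read on Affymetrix rat expression arrays. The authors deposited linear intensity values made by RMA, per the submitters' processing notes, whose version is not given in the sources used here; RMA subtracts background, forces the arrays to 1 distribution and sums probes, so global shifts in RNA are not visible. From these, log2 values were taken, each gene was read by its probe set of highest mean among those with 1 symbol, and limma 3.58.1 (R 4.3.3) fitted 8 group means over 14217 genes. Changes are given with moderated standard errors, p-values were Benjamini-Hochberg adjusted over all genes, and calls are at adjusted p under 0.05. An exact permutation test of 3 arrays against 3 cannot go below p = 0.1 and was not used. The fit was tested on simulated data. Any synthetase gene could be named; other genes came from the lists (at most 6 a list and comparison, by adjusted p) or a short panel. The synthetases, lists and tests were chosen with earlier results of these data known. Promoters are RefSeq windows on GRCr8. Number of arrays limits the precision. Alternatives covered array weights, the arrays in the fit, a replicate block, the variance prior, the probe set, dim genes, normalization, scale, a fold threshold and each array left out.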

Additional observations from a re-analysis of the deposited data

Results flagged for a closer look

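The results here are differences between conditions that were themselves tested. The interaction of BRD0476 and cytokines was called for 20 of 32 synthetases at 6 h, where 33.2% of all genes were called. It was most negative for Wars1 (-1.33 ± 0.11), Kars1 (-1.24 ± 0.09) and Vars1 (-1.04 ± 0.17). The cytokine change of these genes was thus smaller with the compound than in DMSO. At 12 h the interaction was called for 7, where 15.3% of all genes were called, with Wars1 at -1.24 ± 0.11.

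The cytokine change in DMSO differed between 12 h and 6 h for 15 synthetases, where 28.8% of all genes were called. Sars1 was at -1.24 ± 0.10 and Vars2 at -1.15 ± 0.31. The change with BRD0476 in cells with cytokines differed between the times for 17, where 25% of all genes were called, with Vars2 at 1.32 ± 0.31. Vars2 is dim (mean log2 intensity 5.18), and its standard error (0.22 for a difference of 2 groups) was the largest of the 32 genes. Groups of 3 arrays were not tested for single outlying arrays.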

How the results depend on the processing

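Leaving out single arrays moved most counts of called synthetases by less than 1.5 times; the exceptions were cytokines in BRD0476 at 6 h (7 to 10 of a main 11) and BRD0476 alone at 6 h (1 to 2). Requiring a change of at least 1.5-fold as well, which removes small changes by construction, left 7 calls for cytokines in DMSO at 12 h, 1 and 2 for cytokines in BRD0476 at 6 h and 12 h, 1 and 1 for BRD0476 alone, 7 and 4 for BRD0476 with cytokines, 9 and 4 for the interaction, 8 and 6 for the differences between times in the cytokine and the BRD0476 change, and 5 for time in untreated cells. Of all 14217 genes this left, in the same order, 2651, 924 and 1113, 76 and 134, 2374 and 1200, 2414 and 1115, 1995 and 1570, and 53. Array weights gave 16 calls for cytokines in BRD0476 at 12 h and 6 and 14 for BRD0476 alone at 6 h and 12 h. Over all genes they gave 6304, 1123 and 1929 calls, where the main fit gave 3938, 502 and 663. These counts thus rose over all genes too, and the cause was not tested. A fit to the compared arrays alone, with fewer degrees of freedom, gave 0 for BRD0476 alone at 6 h (7 at an unadjusted p under 0.05 in limma) and 11 for the time difference of the BRD0476 change. Over all genes that fit gave 108 and 2733 calls for these 2 comparisons. BRD0476 alone at 6 h had 4 calls with an intensity trend in the prior and 4 on log2(value + 16), where 623 and 674 of all 14217 genes were called. Among values called in the main or the alternative fit, directions turned only where another probe set was read. With the probe set of largest variance Farsb was at -0.75 (cytokines in DMSO, 6 h), -0.27 (12 h), -0.33 (cytokines in BRD0476, 6 h), -0.33 (BRD0476 with cytokines, 12 h), 0.42 (interaction, 6 h) and 0.48 (time difference of the cytokine change), Tars2 at 0.0098 (cytokines in DMSO, 12 h) and Mars1 at -0.0915 (cytokines in BRD0476, 6 h). With probe sets averaged per gene, Farsb was at -0.29 (cytokines in DMSO, 6 h) and Kars1 at 0.026 (time difference of the cytokine change).

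The replicate numbers of the labels were not taken to pair the samples, since pairing asked for every pair above 0.1. Same-numbered arrays of different groups correlated at -0.478 to 0.722 in their deviations from the group means (median -0.0417). Of 84 pairs 21 were above 0.1, and 12 of 24 arrays correlated best with their own number. So strict a rule cannot show that the samples were unpaired. With the replicate number as a block, the counts in the order cytokines in DMSO, cytokines in BRD0476, BRD0476 alone, BRD0476 with cytokines and interaction, each at 6 h and 12 h, were 25, 12, 10, 9, 2, 8, 23, 13, 20 and 7, and 15, 18 and 10 for the differences between times and the untreated time course; 5 calls were gained and 2 lost in all. Over all 14217 genes the block gave, in the same order, 7308, 6439, 2927, 3856, 473, 624, 6214, 3752, 4633 and 2109, and 4008, 3461 and 214. Dim probe sets such as Nars2 (mean 4.40) lie near background, where changes are compressed.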
